A study of Homo sapiens with 9 samples.

Results

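Complement is a set of blood and cell-surface proteins that tag and lyse targets, and the 9 human genes described here encode part of it: C3, CFB, C1R, C1S, CFI, SERPING1, CD46, CD55 and CD59. They were found by gene symbol in the deposited gene table, 9 of 60612 listed genes, and they had been selected on their levels in these same libraries, in the comparisons of each MILIP siRNA with control siRNA and of the siRNAs with each other. Their values and fold changes are therefore given as a description, with no test of the set. Calls of single members, defined below, come from the comparisons that selected them and are part of that description. MDA-MB-231, an established human triple-negative breast cancer cell line, was harvested 48 hours after transfection with MILIP siRNA2, MILIP siRNA1 or a negative control siRNA, in 3 libraries per group and 9 libraries in all. MILIP is a long noncoding RNA, listed in the table as MAFG-DT; one protocol text names PLANE as the siRNA target, whereas the treatment labels and the study title name MILIP. Whether a group's 3 libraries were grown separately is not labelled, so the spread between them may be technical. All groups were the same line treated by lipid transfection, and no untransfected cells were analysed here.

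The classical pathway starts when the protease pair C1r and C1s is activated on bound antibody, and the alternative pathway amplifies it through factor B, the CFB product. Both routes cleave C3, the central component, whose fragments mark a surface and lead to the membrane attack complex. Factor I, the CFI product, and C1 inhibitor, the SERPING1 product, restrain these steps in plasma. CD46, CD55 and CD59 protect the cell that carries them: CD46 is a cofactor for factor I, CD55 dissolves C3 convertases and CD59 blocks assembly of the attack complex. The liver makes most plasma complement, while epithelial and tumour cells make some components locally, and inflammatory cytokines are known to raise C3 and CFB transcription.

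Promoter sequences from RefSeq (GRCh38.p14; 250 bases before to 50 bases after a start) were matched to 6 of the 9 members, with 11 promoters among them. Motifs were searched on both strands. C1R and CD46 had 2 promoters each and CD59 had 4, some overlapping, so these genes had more chances of a match. The shares below are per promoter, while a member is named if any of its promoters held the motif. A gamma-activated site (TTC, any 3 bases and GAA), the kind bound by STAT factors, occurred in 7.66% of all 35116 promoters of that length and in a promoter of C1R, of CFB and of CD59. These sites are shown with their surroundings because they are the least common match that several members share; capitals mark the motif. The C1R site lies within chr12:7091961-7091989 on the minus strand, in an intron of longer C1R transcripts. The CFB site lies within chr6:31945993-31946021 on the plus strand, just before the RefSeq start. It is inside the leading exon of a longer annotated CFB transcript. The CD59 site, within chr11:33736589-33736617 on the minus strand, lies upstream of the gene as listed in the table.
C1R: gccagtcctaTTCCTGGAAggggagggga
CFB: cgcttggatgTTCCGGGAAagtgatgtgg
CD59: ccacccggccTTCTCAGAAcctgggccag

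The CFB promoter alone among the members also held the interferon response motif (GAAA, any 2 bases and GAAA), which occurred in 3.57% of all promoters. It read on the minus strand, so the capitals within chr6:31945945-31945974, printed on the plus strand, are its reverse complement.
CFB: acttctgcagTTTCTGTTTCcttgactggc

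The kappaB motif (GGG, any 5 bases and CC) occurred in 58.7% of all promoters, and promoters of C1R, CD46, CD55, CD59 and CFB held it. The C/EBP motif (TTGC, any 2 bases and AA) occurred in 10.5% of all promoters and in those of C1R and CD59. The CFI promoter held none of the 4 motifs. A match describes letters only, and binding was not measured.

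Before the members, the targeted gene and the depth were checked. MILIP averaged 0.616 ± 0.316 CPM (counts scaled to library size) with siRNA2 and 1.24 ± 0.641 CPM with siRNA1, against 8.41 ± 0.254 CPM in control libraries (SD, n = 3 each). Its level was 7.32% of control with siRNA2 and 14.7% with siRNA1. The log2 fold change was -3.73 (SE 0.287, edgeR adjusted p = 5.34e-11) with siRNA2 and -2.74 (SE 0.256, edgeR adjusted p = 2.51e-09) with siRNA1, and the exact two-sided permutation test over libraries gave p = 0.1 for each, the smallest that 3 against 3 allows. Libraries held 15281220 to 19759371 counts, and 15345 genes passed the filter on low counts. A call below means an edgeR adjusted p under 0.05 over those genes. The 7 line markers were read against the label. VIM and CD44 averaged 916 and 82.5 FPKM (fragments per kilobase of exon, scaled to library size) in control libraries, ESR1 averaged 0.0333 FPKM and PGR was listed at 0. ERBB2, the other receptor that defines triple-negative tumours, was detected at 5.90 FPKM in control libraries, and EPCAM, an epithelial marker, at 2.30 FPKM. AXL, another line marker, averaged 52.8 FPKM with siRNA2 and 20.3 FPKM with siRNA1, against 194 FPKM in control.

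All 7 members with counts were higher with siRNA2 than in control, by 1.15-fold to 3.24-fold, with no overlap between the libraries of the groups. With siRNA1 the same 7 genes went both ways: CFB and C1R were called higher, C1S and CD46 were called lower, and C3, CD55 and CD59 were not called. Against siRNA1, siRNA2 libraries were higher for all 7. Because these comparisons chose the genes, the counts are set beside the background and nothing is read from them. With siRNA2, 7 of 7 members were called higher and 0 lower, where 27.2% of all tested genes were called higher and 28.9% lower. With siRNA1, 2 were called higher and 2 lower, where 25.1% of all tested genes were called higher and 25.3% lower. In siRNA2 against siRNA1, 7 were called higher and 0 lower, where 28.4% of all tested genes were called higher and 32% lower. Libraries did not overlap for 7 members with siRNA2, 6 with siRNA1 and 7 between the siRNAs, beside 61.8%, 53.8% and 65.5% of all tested genes. The median log2 fold change of the 7 was 0.77 with siRNA2, 0.09 with siRNA1 and 0.59 between the siRNAs, beside -0.011, 0.0032 and -0.033 over all tested genes. The comparisons with control share the same 3 control libraries.

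**Figure D1:**
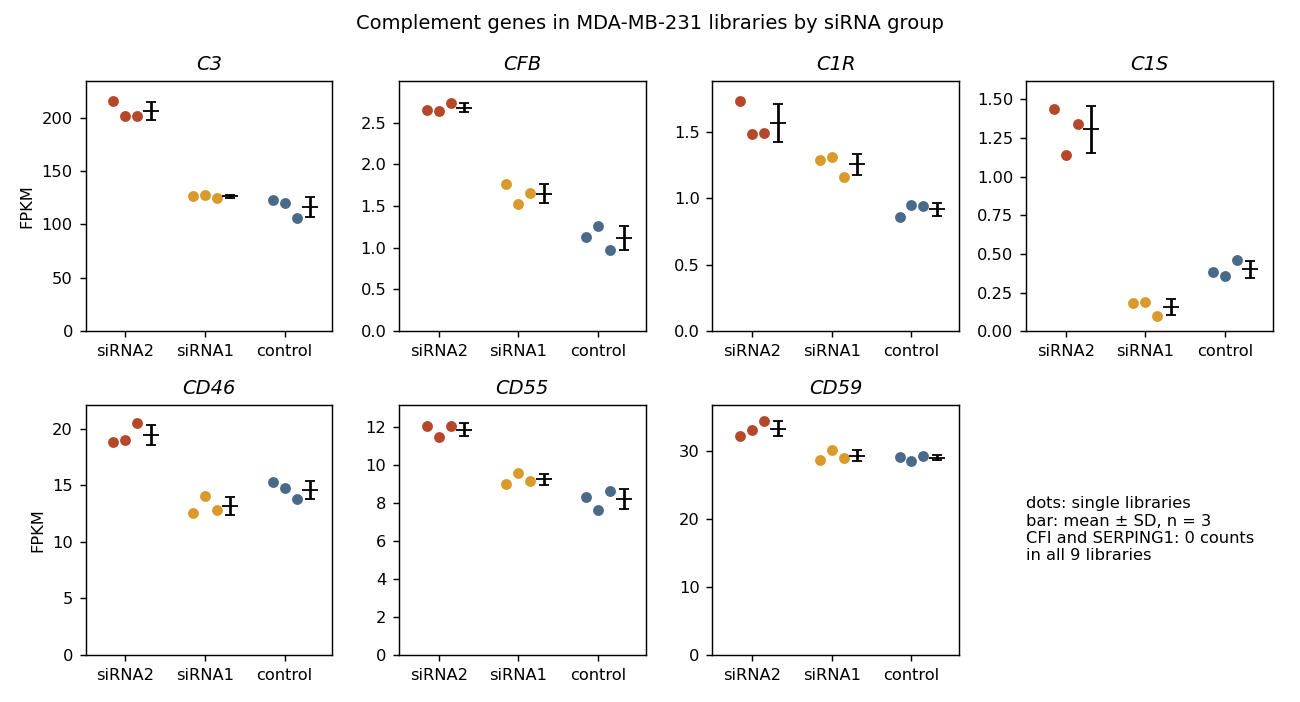
Level of each member with counts (vertical axes, FPKM, each starting at 0) in the siRNA2, siRNA1 and control libraries; dots are single libraries, and the bar beside them is the mean ± SD, n = 3. C3 lies between 201.19 and 215.46 FPKM with siRNA2, above every other library. C1S and CD46 have siRNA1 as the group with the lowest mean, and for CD46 the siRNA1 and control ranges overlap.

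**Figure D2:**
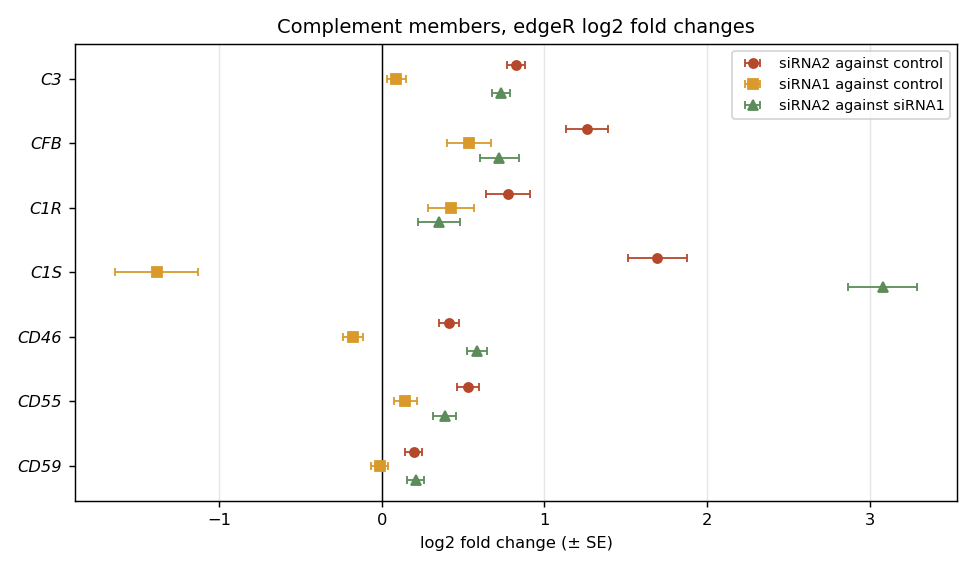
log2 fold change with its SE (horizontal axis) for the 7 members with counts (rows) in siRNA2 against control, siRNA1 against control and siRNA2 against siRNA1. All siRNA2 points against control are right of 0, from 0.20 for CD59 to 1.69 for C1S, while C1S lies at -1.38 with siRNA1.

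C3 was the most abundant member. Its FPKM was 215.46, 201.19 and 201.45 with siRNA2, 126.51, 127.53 and 124.30 with siRNA1, and 122.49, 120.44 and 106.03 in control libraries. The siRNA2 libraries stood well above the rest, and the siRNA1 libraries lay just above control without overlapping it. In control cells C3 was at the 97.9 percentile of tested genes by FPKM. Its log2 fold change was 0.82 (SE 0.056; 1.77-fold) with siRNA2 and 0.09 (SE 0.056; 1.065-fold) with siRNA1, the siRNA1 value not being called. siRNA2 exceeded siRNA1 by 0.73 (SE 0.056; 1.66-fold). C3 took 0.171% of all counts with siRNA2, 0.105% with siRNA1 and 0.0965% in control.

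The C3 gene (ENSG00000125730) spans chr19:6677704-6730562 on the minus strand, in the GRCh38 coordinates of GENCODE v29 that the table follows. GPR108, an annotated same-strand neighbour that overlaps this span, averaged 115.8 ± 10.2 CPM with siRNA2, 58.6 ± 2.35 CPM with siRNA1 and 61.4 ± 4.89 CPM in control. An unnamed intronic transcript inside C3, AC008760.2, averaged 12.2 ± 2.51 CPM with siRNA2, 4.49 ± 0.780 CPM with siRNA1 and 2.44 ± 0.368 CPM in control. No label or header states whether reads were counted by strand, so reads at shared bases are uncertain.

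CFB (ENSG00000243649, chr6:31945650-31952084, plus strand), the protease subunit of the alternative pathway C3 convertase, was counted at a low level, at the 28.0 percentile in control. Its counts were 240, 247 and 222 with siRNA2, 131, 127 and 152 with siRNA1, and 87, 91 and 79 in control. The 3 groups formed 3 separate ranges, with siRNA2 highest. In CPM this was 12.8 ± 0.200 with siRNA2, 7.74 ± 0.584 with siRNA1 and 5.34 ± 0.684 in control (SD, n = 3 each). CFB had a log2 fold change of 1.26 (SE 0.128; 2.39-fold) with siRNA2 and of 0.54 (SE 0.136; 1.45-fold) with siRNA1. siRNA2 exceeded siRNA1 by 0.72 (SE 0.120; 1.65-fold). C3 FPKM was 77.0 ± 3.95 times that of CFB with siRNA2 and 76.7 ± 5.95 times with siRNA1, against 104 ± 7.67 times in control. The CFB span overlaps C2 and a readthrough gene, AL645922.1, which had 0 counts. How reads at bases shared with these genes were assigned was not examined. The CFB level and the C3 to CFB ratio are therefore uncertain. NELFE, near CFB on the other strand, averaged 100.5 CPM with siRNA2, 107.5 CPM with siRNA1 and 106.8 CPM in control.

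C1R and C1S, on chromosome 12, encode the proteases that act together in the C1 complex, and their levels moved differently. The C1R span overlaps C1RL on its own strand, so reads at shared bases are uncertain. C1R (ENSG00000159403, chr12:7080214-7092540, minus strand) had counts of 192, 170 and 148 with siRNA2, 118, 133 and 130 with siRNA1, and 81, 84 and 94 in control. All siRNA2 libraries were above all siRNA1 libraries in CPM, and these were above control. The log2 fold change was 0.77 (SE 0.135; 1.71-fold) with siRNA2 and 0.42 (SE 0.140; 1.34-fold) with siRNA1. The siRNA1 call was lost without control replicate 1 (0.37) and without siRNA1 replicate 1 (0.38). siRNA2 exceeded siRNA1 by 0.35 (SE 0.128; 1.28-fold), a call that was lost without siRNA1 replicate 3 (0.29) and without siRNA2 replicate 1 (0.26).

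C1S (ENSG00000182326, chr12:6988259-7071032, plus strand) had counts of 178, 146 and 148 with siRNA2, 18, 22 and 13 with siRNA1, and 40, 36 and 51 in control. The siRNA1 libraries were lowest and the siRNA2 libraries highest, with control between and no overlap. In CPM, C1S averaged 8.51 ± 1.05 with siRNA2, 1.01 ± 0.304 with siRNA1 and 2.61 ± 0.334 in control. Its log2 fold change was 1.69 (SE 0.184; 3.24-fold) with siRNA2 and -1.38 (SE 0.256; 0.383-fold) with siRNA1, and siRNA2 exceeded siRNA1 by 3.08 (SE 0.214; 8.44-fold). Within each library, C1S FPKM divided by C1R FPKM averaged 0.834 ± 0.0634 with siRNA2 and 0.125 ± 0.0311 with siRNA1, against 0.439 ± 0.0514 in control. At these low levels the pseudocount sets the size: with limma on log2(FPKM + 1) the C1S change was 0.72 with siRNA2 and -0.28 with siRNA1, in the same directions and still called.

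**Figure D3:**
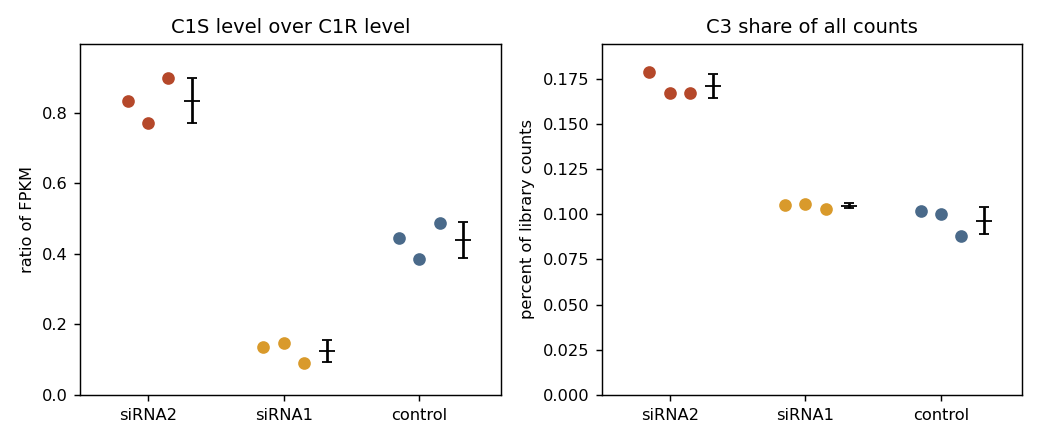
Left, C1S FPKM divided by C1R FPKM; right, the share of all library counts taken by C3 in percent; dots are the 3 libraries of each group and bars are the mean ± SD. The C1S to C1R ratio averages 0.834 with siRNA2, 0.125 with siRNA1 and 0.439 in control, with no overlap.

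The C1S span overlaps EMG1 on its own strand and LPCAT3 on the other strand. EMG1, a ribosome biogenesis factor, averaged 32.1 ± 1.92 CPM with siRNA2, 62.5 ± 3.18 CPM with siRNA1 and 67.7 ± 4.79 CPM in control. LPCAT3, a phospholipid acyltransferase, averaged 8.84 ± 0.485 CPM with siRNA2, 13.1 ± 1.85 CPM with siRNA1 and 8.86 ± 0.536 CPM in control. How reads at bases shared with these genes were assigned was not examined. The C1S level and the C1S to C1R ratio are therefore uncertain.

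Short sequence words in 3′ untranslated regions were set beside the fold changes with each siRNA. Among 16241 words of 7 bases in 12589 tested genes, AATTCCA had the most negative difference in siRNA1 fold change between genes with and without it, relative to its error, and GACCCTA had that place with siRNA2. Both words were picked on these data, C1S included, and both occur in MILIP. Genes with AATTCCA, 16.9% of those examined, differed in their mean from the other genes by -0.361 on the log2 scale with siRNA1. Genes with GACCCTA, 5.35% of those examined, had a mean difference of -0.416 with siRNA2. The length and base composition of the regions were not taken into account. In the longest annotated 3′ untranslated region of a coding transcript, C1S alone of the 7 members held AATTCCA, and none held GACCCTA. The C1S word lies at chr12:7070966-7070972 on the plus strand, at position 315 of 381 bases, and is shown beside the MILIP site at chr17:81930360-81930366 on the plus strand. Shorter C1S coding transcripts end before the word. Capitals mark the shared letters, and the siRNA sequences themselves were not used here; whether siRNA1 acts on C1S RNA was not tested.
C1S: ctgttcaaAATTCCAtttacttg
MILIP: gtcagggcAATTCCAaccaagaa

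CFI (chr4:109740694-109802179, minus strand) and SERPING1 (chr11:57597387-57614848, plus strand), the members that encode plasma regulators, had 0 counts in all 9 libraries. A count of 0 allows up to 3 counts in a library, or 0.0311 to 0.0403 FPKM for CFI and 0.0440 to 0.0569 FPKM for SERPING1, for counting error only. Neither gene entered the tests. No change in either was detectable at this depth.

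The membrane regulators were well expressed. CD59 (ENSG00000085063, chr11:33703010-33736479, minus strand) had 32.23, 33.17 and 34.44 FPKM with siRNA2, 28.71, 30.23 and 29.04 FPKM with siRNA1, and 29.17, 28.61 and 29.27 FPKM in control. The siRNA2 libraries were slightly above all others, and the siRNA1 and control libraries overlapped. The CD59 span overlaps AL049629.2 on its own strand, so reads at shared bases are uncertain. AL049629.2 averaged 2.72 ± 0.620 CPM with siRNA2, 1.84 ± 0.258 CPM with siRNA1 and 2.92 ± 0.675 CPM in control. CD59 had a log2 fold change of 0.20 (SE 0.052; 1.15-fold) with siRNA2 and -0.011 (SE 0.052; 0.992-fold) with siRNA1. siRNA2 exceeded siRNA1 by 0.21 (SE 0.052; 1.16-fold).

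CD46 (ENSG00000117335, chr1:207752054-207795513, plus strand) had 18.80, 19.00 and 20.46 FPKM with siRNA2, 12.58, 14.04 and 12.84 FPKM with siRNA1, and 15.31, 14.72 and 13.74 FPKM in control. The siRNA2 libraries were highest, and in CPM scaled by edgeR the siRNA1 libraries were below every control library; in FPKM 14.04 with siRNA1 exceeds 13.74 in control. The log2 fold change was 0.41 (SE 0.061; 1.33-fold) with siRNA2 and -0.18 (SE 0.062; 0.886-fold) with siRNA1. The siRNA1 call was lost in both limma fits on FPKM (-0.14 and -0.15), without control replicate 1 (-0.15) or 2 (-0.17), and without siRNA1 replicate 1 (-0.17) or 3 (-0.16). siRNA2 exceeded siRNA1 by 0.59 (SE 0.062; 1.5-fold).

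CD55 (ENSG00000196352, chr1:207321532-207386804, plus strand) had 12.08, 11.50 and 12.08 FPKM with siRNA2, 9.01, 9.60 and 9.17 FPKM with siRNA1, and 8.35, 7.66 and 8.66 FPKM in control. The groups formed 3 separate ranges in the order siRNA2, siRNA1, control. CD55 had a log2 fold change of 0.53 (SE 0.070; 1.44-fold) with siRNA2 and 0.14 (SE 0.071; 1.1-fold) with siRNA1, the siRNA1 value not being called, and siRNA2 exceeded siRNA1 by 0.39 (SE 0.069; 1.31-fold). CD46 and CD55 lie in the cluster of complement regulators on chromosome 1, where of the neighbouring regulators C4BPB passed the filter, C4BPA and CR1 had 0 counts and CR2 had 8 counts over all 9 libraries.

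Summed over CD46, CD55 and CD59, the level was 64.6 ± 2.09 FPKM with siRNA2 and 51.7 ± 1.88 FPKM with siRNA1, against 51.8 ± 0.930 FPKM in control. CD59 made up 51.5 ± 0.522% of that sum with siRNA2, 56.7 ± 0.509% with siRNA1 and 56.0 ± 0.724% in control. C3 FPKM divided by that sum was 3.19 ± 0.205 with siRNA2, 2.44 ± 0.0740 with siRNA1 and 2.24 ± 0.168 in control. In control FPKM, the order of members from high to low was C3, CD59, CD46, CD55, CFB, C1R and C1S. Shared bases leave the places of CFB, C1R and C1S uncertain. No neighbours in this order overlapped in the control libraries; the closest were CFB, at 0.97 to 1.26 FPKM, and C1R, at 0.86 to 0.95 FPKM.

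Of 52 other complement genes, 16 passed the filter, 16 had 0 counts in all 9 libraries and 20 had counts below the filter, with at most 54 counts summed over the libraries. C1QA, C1QB and C1QC, which encode the recognition part of the C1 complex, were at 0, as were C6, C8A and C8B of the attack complex. C2 and C4B, which with C4A encode the classical C3 convertase, had 46 and 37 counts in all. C4A and C4B are near-identical copies, so their counts are uncertain.

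With siRNA2, 9 of the 16 rose (among them C1RL, CFD, CFP, C4BPB, CLU, C3AR1, ITGB2 and CALR) and 3 fell (C5, THBD and C1QBP), beside 27.2% of all tested genes called higher and 28.9% lower. With siRNA1, 4 rose (MASP2, C4BPB, CLU and CALR) and 2 fell (C5 and THBD), beside 25.1% of all tested genes called higher and 25.3% lower; the share of these 16 called higher was near that background. Between the siRNAs, 7 were higher with siRNA2 (among them C1RL, CFP, THBD, C3AR1, ITGB2 and CALR) and 3 lower (MASP2, CLU and C1QBP), beside 28.4% and 32% of all tested genes. The median log2 fold change of the 16 was 0.70 with siRNA2, 0.16 with siRNA1 and 0.29 between the siRNAs, beside -0.011, 0.0032 and -0.033 over all tested genes. Over both comparisons with control, C4BPB, CLU and CALR rose with each siRNA and C5 and THBD fell with each, while C4A, C8G and SUSD4 were not called with either. Some of these calls were lost when 1 library was left out. For MASP2 with siRNA1 (0.72) this was so without control replicate 1 (0.59) or 2 (0.74) and without siRNA1 replicate 3 (0.61). For CFD with siRNA2 (0.58) it was so without control replicate 1 (0.46) or 2 (0.66) and without siRNA2 replicate 2 (0.59) or 3 (0.40). C5 lost its siRNA2 call (-0.47) without control replicate 1 (-0.46) or 2 (-0.30) and without siRNA2 replicate 1 (-0.34) or 2 (-0.42), and its siRNA1 call (-0.55) without control replicate 2 (-0.38) and without siRNA1 replicate 1 (-0.47) or 3 (-0.49). CALR with siRNA1 (0.15) lost its call without control replicate 1 (0.14) or 2 (0.13) and without siRNA1 replicate 1 (0.11). MASP2 between the siRNAs (-0.59) lost its call under 11 of the 16 alternatives that gave a value, from -0.64 to -0.37.

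**Figure D4:**
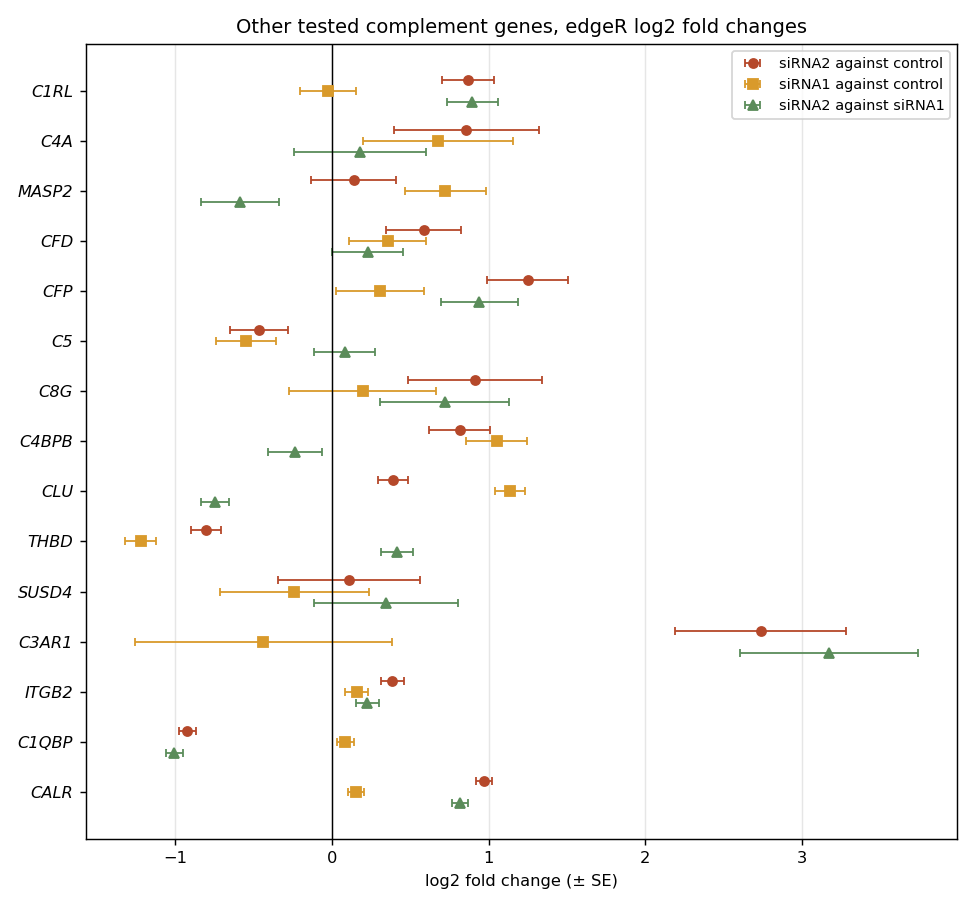
log2 fold change with its SE (horizontal axis) for 15 of the 16 other complement genes that passed the filter (rows), in siRNA2 against control, siRNA1 against control and siRNA2 against siRNA1. CALR and C3AR1 lie right of 0 with siRNA2 at 0.97 and 2.74, and THBD lies left of 0 with both siRNAs.

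Properdin, the CFP product that stabilises the alternative convertase, had 68, 59 and 59 counts with siRNA2, against 24, 19 and 25 in control, and rose (log2 fold change 1.25, SE 0.257, edgeR adjusted p = 0.000197). C1RL, which encodes a C1r-like protease and overlaps C1R on the same strand, rose with siRNA2 (0.87, SE 0.166, edgeR adjusted p = 7.89e-05).

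The receptor gene C3AR1, for the anaphylatoxin C3a, had 18, 31 and 30 counts with siRNA2, 4, 3 and 1 with siRNA1, and 5, 5 and 0 in control. It rose with siRNA2 (log2 fold change 2.74, SE 0.546, edgeR adjusted p = 0.000138) from very few counts. CALR, a chaperone that also acts as a C1q receptor, averaged 2289 ± 93.8 CPM with siRNA2, 1298 ± 47.3 CPM with siRNA1 and 1168 ± 47.5 CPM in control. It rose with siRNA2 by 0.97 (SE 0.052, edgeR adjusted p = 6.73e-14) and with siRNA1 by 0.15 (SE 0.052, edgeR adjusted p = 0.0163). C1QBP, a mitochondrial protein that binds C1q, fell with siRNA2 (-0.92, SE 0.056, edgeR adjusted p = 6.20e-13) to 162 ± 2.89 CPM, against 308 ± 12.1 CPM in control.

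CLU, clusterin, which inhibits the attack complex, averaged 25.3 ± 1.35 CPM with siRNA2 and 42.6 ± 3.94 CPM with siRNA1, against 19.3 ± 1.87 CPM in control. It rose by 0.39 (SE 0.096, edgeR adjusted p = 0.00129) with siRNA2 and by 1.14 (SE 0.094, edgeR adjusted p = 2.56e-10) with siRNA1. THBD, thrombomodulin, a membrane protein that speeds C3b inactivation, fell with siRNA2 (-0.80, SE 0.095, edgeR adjusted p = 8.77e-08) and with siRNA1 (-1.22, SE 0.098, edgeR adjusted p = 1.62e-10). C4BPB, the beta chain of C4b-binding protein, rose with siRNA2 (0.82, SE 0.197, edgeR adjusted p = 0.00104) and siRNA1 (1.05, SE 0.194, edgeR adjusted p = 7.13e-05).

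A list of 30 genes of inflammatory signalling held cytokines that raise complement genes, their receptors and transcription factors, and the feedback inhibitors SOCS1 and SOCS3; 27 passed the filter. With siRNA2, 18 rose and 6 fell, beside 27.2% of all tested genes called higher and 28.9% lower. With siRNA1, 11 rose and 9 fell, beside 25.1% and 25.3%. Between the siRNAs, 15 were higher with siRNA2 and 6 lower, beside 28.4% and 32%. The median log2 fold change of the 27 was 0.69 with siRNA2, 0.15 with siRNA1 and 0.38 between the siRNAs, beside -0.011, 0.0032 and -0.033 over all tested genes. IL6 averaged 269 ± 32.4 CPM with siRNA2, 32.7 ± 1.08 CPM with siRNA1 and 31.2 ± 1.24 CPM in control. It rose with siRNA2 by 3.10 (SE 0.080, edgeR adjusted p = 2.51e-19). The other genes with the largest siRNA2 changes were SOCS1 (1.76), IL1A (1.75), IL1R1 (1.50), IL1B (1.39) and STAT2 (1.24), all higher. IL1B averaged 939 ± 139 CPM with siRNA2, 233 ± 8.91 CPM with siRNA1 and 359 ± 23.5 CPM in control.

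With siRNA1, the largest changes were rises of CEBPA (1.98), IL6R (1.50) and SOCS1 (1.50) and falls of STAT3 (-1.07), NFKB1 (-1.04) and OSMR. The CEBPA change (SE 0.384) rests on few counts, 24, 51 and 58 with siRNA1 against 7, 13 and 10 in control. OSMR, the oncostatin M receptor, averaged 74.8 ± 1.23 CPM with siRNA1, against 150.0 ± 15.0 CPM in control. STAT3, the transcription factor downstream of IL-6, averaged 293 ± 4.01 CPM with siRNA2 and 101 ± 3.09 CPM with siRNA1, against 212 ± 13.4 CPM in control. Its siRNA1 log2 fold change was -1.07 (SE 0.060, edgeR adjusted p = 1.56e-13). The part of these genes in the members' levels was not tested.

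Over the 9 libraries, log2 CPM of the members correlated pairwise with Pearson r from 0.547 for C1R and C1S to 0.958 for C1S and CD46. The libraries fall into 3 siRNA groups, so these r describe group differences, and all members share each library's depth. The genes most like C3 were MEF2D (0.997), CCL20 (0.996), DCBLD1 (0.996) and ZSWIM8 (0.995), and 15 genes exceeded 0.99. Those most like CD55 were SPANXB1 (0.992), CHMP5 (0.991), SNX14 (0.9901) and FAM177A1 (0.989).

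Markers of other cell types were read beside the members. The summed hepatocyte list ranged from 4.67 to 5.03 FPKM with siRNA2, 1.23 to 1.28 with siRNA1 and 1.81 to 2.27 in control, where 1 of 12 listed genes (SERPINA1) passed the filter and 5 were at 0, ALB reaching at most 0.0133 FPKM as a group mean. The leukocyte list ranged from 7.29 to 8.07 FPKM with siRNA2, 1.67 to 2.64 with siRNA1 and 2.07 to 2.53 in control, with 3 of 10 passing the filter, and CD3E and NKG7 at 0. The endothelial list ranged from 2.64 to 2.90 FPKM with siRNA2, 0.82 to 0.95 with siRNA1 and 1.20 to 1.51 in control, with 2 of 5 passing. The fibroblast list ranged from 7.99 to 8.28 FPKM with siRNA2, 5.71 to 6.67 with siRNA1 and 0.92 to 1.29 in control, with 4 of 6 passing and COL1A1 giving most of it. All 4 sums were highest with siRNA2, where the members were highest, and their part in the members' levels was not tested. In a bulk library, fewer cells that express a gene and less RNA per cell cannot be told apart.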

How the data were processed

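RNA of 9 MDA-MB-231 libraries was measured by RNA-seq. The deposited table holds the authors' raw counts per gene and FPKM per gene; every FPKM equalled the count scaled by exonic size and library total, within 0.0051. Per the submitters' processing notes, Trimmomatic 0.30, HISAT2 2.0.1, HTSeq 0.6.1 and DESeq were used and hg19 was named; the table's own coordinates match GRCh38 (GENCODE v29), and those are printed. Strand use is not stated. Samples were grouped by the treatment labels.

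From the counts, edgeR 4.0.16 (R 4.3.3) was run in 1 fit of the 3 groups: filterByExpr with a minimum count of 10 and minimum total of 15, TMM scaling, quasi-likelihood test, Benjamini-Hochberg adjustment over 15345 genes, which held 99.9% of counts. The SE is the absolute log2 fold change over the square root of the F statistic. Limma 3.58.1 on log2(FPKM + 1) or log2(FPKM + 0.1), DESeq2 1.42.0, median-of-ratios scaling, other filters, a replicate block and each library left out were alternatives. The fit was tested on simulated data. Likeness used log2 CPM with a pseudocount of 0.5. Named: all 9 members, other complement genes passing the filter, up to 6 inflammatory signalling genes by size of change among those called, and for C3 and CD55 the 4 most correlated genes with an official symbol; the neighbours and the 3′ untranslated words were added after values were seen. Members and lists were chosen with earlier results of these data known. Depth gives a limit of 0.152 to 0.198 CPM for 3 counts. Some genes of the lists are counted but not reported here by name.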

Additional observations from a re-analysis of the deposited data

Results flagged for a closer look

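C1S stood out because its direction differed between the siRNAs: its log2 fold change was 1.69 with siRNA2 and -1.38 with siRNA1, and every siRNA2 library was above, and every siRNA1 library below, all control libraries. The fitted difference between the siRNAs was 3.08 (SE 0.214). CD46 did the same in CPM at a smaller size, 0.41 with siRNA2 and -0.18 with siRNA1, a difference of 0.59 (SE 0.062). The CD46 call with siRNA1 was lost in both limma fits on FPKM and in some fits without 1 library. In FPKM the CD46 ranges of siRNA1 and control overlapped, with 14.04 in a siRNA1 library and 13.74 in a control library. Both genes were chosen with these values known, so the differences are a description.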

How the results depend on the processing

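No called value of a member, other complement gene or inflammatory signalling gene changed sign under the alternatives that gave a value (17 per result, fewer where a filter drops the gene, as a minimum mean FPKM of 1 drops C1S). Of the uncalled member values, CD59 with siRNA1 (-0.011) changed sign in some, reaching 0.015. Among members, 10 values lost a call and 2 gained one. The count of members called with siRNA1 was 4, and ranged from 2 to 4 when single libraries were left out, being 2 without control replicate 1 or without siRNA1 replicate 1; with siRNA2 it was 7 in each such fit, and between the siRNAs 6 to 7. C1R between the siRNAs (0.35) was not called without siRNA1 replicate 3 (0.29) or siRNA2 replicate 1 (0.26). CD46 with siRNA1 was -0.14 and -0.15 in the limma fits with pseudocounts 1 and 0.1. CD55 with siRNA1 gained a call at a minimum mean FPKM of 1 (0.16) and with limma at pseudocount 1 (0.15). Other complement genes called between the siRNAs numbered 10, and 6 at a minimum mean FPKM of 1, where fewer genes are tested. MILIP in siRNA2 against siRNA1 had a log2 fold change of -0.99 and lost its call with limma (-0.31 at pseudocount 1, -0.81 at 0.1), with only the 2 groups compared (-0.97), and in some fits without 1 library, which ranged from -1.48 to -0.51; the cause was not tested. Deviations of same-numbered replicates from their group means correlated with r from -0.094 to 0.13, and those of differently numbered replicates from -0.19 to 0.20. Whether same-numbered libraries were prepared together is not labelled, and these r cannot decide it. With the replicate block, 4, 7 and 7 members and 6, 12 and 10 other complement genes were called. These counts are for siRNA1 against control, siRNA2 against control and siRNA2 against siRNA1, in that order. Depth limits C3AR1, C4A, C8G and SUSD4 most.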
